A study of Macaca mulatta with 4 samples.

Results

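The beta, gamma and delta subunit genes of the GABA-A receptor described here are GABRB1, GABRB2, GABRG1, GABRG3 and GABRD, the rows of the macaque count table whose Ensembl gene IDs carry those symbols. Each symbol matched 1 ID, which gave 5 genes of the 35395 in the table. RNA was sequenced from the amygdala of wild-type rhesus macaques in 4 libraries. The sevoflurane libraries, 1 male and 1 female, came from infants that inhaled the anaesthetic at roughly 2.5 to 3% in 3 sessions of 4 hours, near postnatal days 7, 21 and 35, with the tissue collected directly after the last session. The control libraries, again 1 male and 1 female, carry the label control and the same wild-type genotype. The sources used here do not give their age, what they breathed or how they were handled.

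GABA-A receptors are chloride channels that open when GABA binds, and they are the main fast inhibitory receptors of the brain. Each channel is a ring of subunits. Alpha and beta subunits together form the GABA sites, and a gamma or delta subunit completes the ring. Gamma-containing receptors gather at synapses and carry the benzodiazepine site between an alpha and a gamma subunit. Delta-containing receptors sit mostly outside synapses, carry tonic current and are sensitive to neurosteroids. Volatile anaesthetics such as sevoflurane enhance the current through these channels. In the forebrain the composition of the receptor changes as the animal matures.

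The libraries held 12477047 to 16293371 reads on genes. Counts were scaled with TMM, a method that sets libraries to a common scale from the bulk of their genes, and levels are given as scaled counts per 1000000 reads (CPM). A level of 1 gene in CPM depends on the length of its transcript, so levels are compared here between libraries and not between genes. The comparison of sevoflurane with control used edgeR's quasi-likelihood test over 15417 genes that passed a filter on low counts, all 5 subunit genes among them. Calls were made where the Benjamini-Hochberg adjusted p was under 0.05. Log2 fold changes are sevoflurane over control, with their standard error (SE). This difference was wide: 40.7% of tested genes were called, 21.3% higher and 19.4% lower. Against that background 4 of the 5 subunit genes were called higher and 1, GABRD, was called lower. In each of the 5, the sevoflurane and control libraries did not overlap, which was also so for 37.7% of tested genes in the higher and 37.3% in the lower direction.

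**Figure D1:**
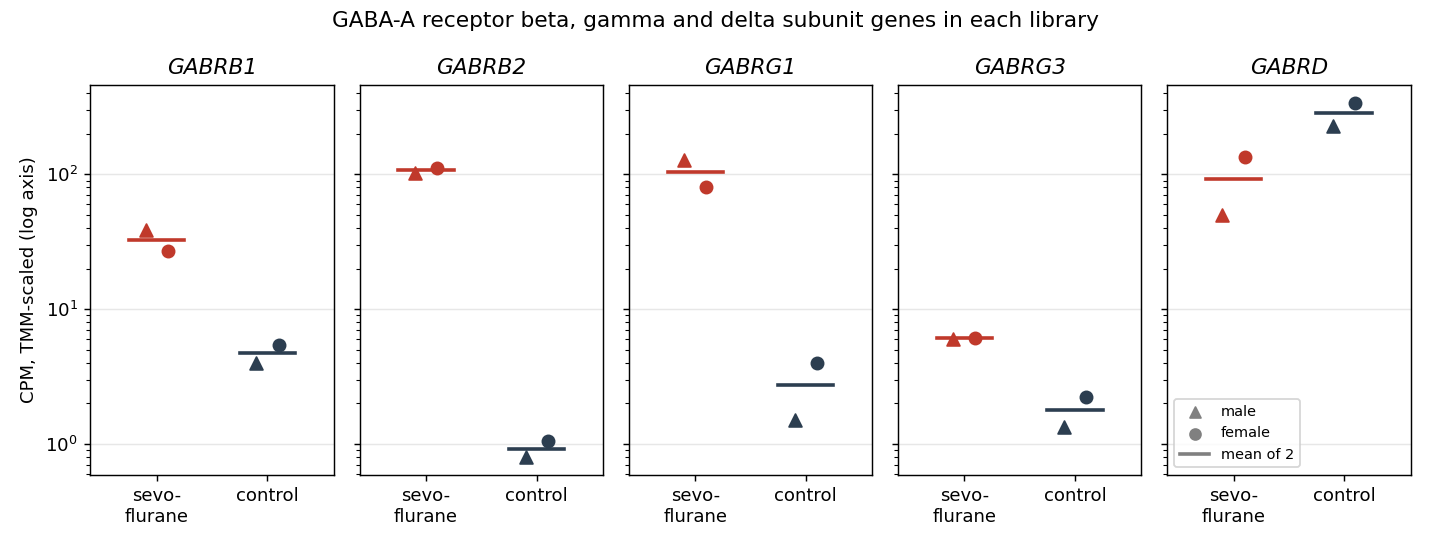
CPM after TMM scaling (log axis) of each subunit gene in the sevoflurane and control libraries. Triangles are male and circles female libraries, and bars are means of 2. GABRB2 stood at 103 and 111 CPM in the sevoflurane libraries and near 1 CPM in the controls, and GABRD is the gene with higher levels in both controls.

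GABRB2 (ENSMMUG00000018044) encodes a beta subunit that is abundant in receptors of the adult mammalian brain. It had 1503 reads in the sevoflurane male and 1754 in the sevoflurane female library, against 9 in the control male and 16 in the control female library. The levels were 103 and 111 CPM in the sevoflurane male and female libraries, against 0.799 and 1.04 CPM in the control male and female libraries. In both control libraries the gene was therefore close to the limit of detection, and in both sevoflurane libraries it was well covered. The log2 fold change was 6.83 ± 0.35 (SE), a 114-fold rise (edgeR adjusted p = 0.00141, higher in both sexes). It ranked 47 of 15417 by fold change, with 0.298% of tested genes above it. The ratio of sevoflurane to control was 129 in males (95% counting interval 67.8 to 283) and 106 in females (65.3 to 187). These intervals overlap widely, and their width comes from the few control reads. Counting intervals here and below cover sampling of reads only and not the variation between animals.

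GABRB1 (ENSMMUG00000004314) encodes the beta subunit that gives receptors low sensitivity to the anaesthetic etomidate. It had 560 reads in the sevoflurane male and 424 in the sevoflurane female library, against 45 in the control male and 83 in the control female library. Its levels were 38.5 and 26.8 CPM in the sevoflurane male and female libraries, against 4.0 and 5.41 CPM in the control male and female libraries. The sevoflurane male was highest and the control male lowest. GABRB1 rose by 2.79 ± 0.39 (log2), 6.91-fold (edgeR adjusted p = 0.00378, higher in both sexes). That value was exceeded by 9.70% of tested genes. The ratio was 9.62 in males (95% counting interval 7.10 to 13.3) and 4.96 in females (3.91 to 6.35), and these intervals do not overlap. The order of the control libraries was not separable by counting error, with a male over female ratio of 0.738 (0.502 to 1.07).

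The reads of the 2 beta genes were divided differently in the 2 conditions. Of the reads on GABRB1 and GABRB2 together, GABRB2 took 72.9% in the sevoflurane male (95% exact binomial interval 70.9 to 74.8) and 80.5% in the sevoflurane female library (78.8 to 82.2). Its share was 16.7% (7.92 to 29.3) in the control male and 16.2% (9.53 to 24.9) in the control female library. Shares are of reads and were not corrected for transcript length, so they compare libraries and do not rank the genes. The log2 ratio of GABRB2 reads to GABRB1 reads within a library does not depend on how libraries are scaled. It was 1.42 and 2.05 in the sevoflurane male and female libraries, against −2.26 and −2.34 in the control male and female libraries. The difference, sevoflurane minus control, was 4.03, with an SD of 0.44 within the sevoflurane and 0.06 within the control pair. Each SD rests on 2 libraries, and the control ratios rest on few GABRB2 reads (9 in the male and 16 in the female library). An exact two-sided permutation test of 2 against 2 libraries cannot give a p below 0.333, and this ratio gave that value (0.333 also when adjusted over 4 ratios between the subunit genes).

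Among the gamma genes, GABRG1 (ENSMMUG00000012820) is the one whose subunit is prominent in the rodent amygdala, where receptors that hold it respond weakly to classical benzodiazepines. It had 1851 reads in the sevoflurane male and 1271 in the sevoflurane female library, against 17 in the control male and 61 in the control female library. Its levels were 127 and 80.5 CPM in the sevoflurane male and female libraries, against 1.51 and 3.98 CPM in the control male and female libraries. Both sevoflurane libraries lay far above both controls. GABRG1 rose by 5.21 ± 0.55 (log2), 37.1-fold (edgeR adjusted p = 0.00219, higher in both sexes), and 1.5% of tested genes had a higher value. The control female library weighed on the size: without it the log2 fold change was 6.12. The ratio was 84.2 in males (95% counting interval 52.4 to 145) and 20.2 in females (15.6 to 26.6), and these intervals do not overlap.

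GABRG3 (ENSMMUG00000023555) encodes the least studied gamma subunit and lies beside GABRA5. It had the fewest reads of the 5 in both sevoflurane libraries, and more than GABRB2 in both controls, with 87 reads in the sevoflurane male and 97 in the sevoflurane female library, against 15 in the control male and 34 in the control female library. These were 5.98 and 6.14 CPM in the sevoflurane male and female libraries, against 1.33 and 2.22 CPM in the control male and female libraries. GABRG3 rose by 1.76 ± 0.57 (log2), 3.38-fold (edgeR adjusted p = 0.0489, higher in both sexes), just inside the threshold. A larger fold change was found for 16.8% of tested genes. The call was lost without the control male (1.41, adjusted p = 0.164), without the sevoflurane female (1.75, adjusted p = 0.160) or without the sevoflurane male library (1.78, adjusted p = 0.168). It was kept without the control female library (2.20, adjusted p = 0.0477). The ratio was 4.48 in males (95% counting interval 2.58 to 8.35) and 2.77 in females (1.86 to 4.22).

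GABRD (ENSMMUG00000019086) encodes the delta subunit, known best from dentate gyrus, thalamus and cerebellar granule cells, where it joins alpha subunits encoded by GABRA4 or GABRA6. It had 726 reads in the sevoflurane male and 2138 in the sevoflurane female library, against 2573 in the control male and 5232 in the control female library. Levels were 49.9 and 135 CPM in the sevoflurane male and female libraries, against 229 and 341 CPM in the control male and female libraries. The libraries ran in the order sevoflurane male, sevoflurane female, control male, control female from lowest to highest. The gap within the sevoflurane pair was wide beside the gap between the conditions. GABRD fell by 1.62 ± 0.50 (log2), a 3.08-fold lower level (edgeR adjusted p = 0.0414, lower in both sexes), and 13.5% of tested genes had a lower value. Its ratio of sevoflurane to control was 0.218 in males (95% counting interval 0.201 to 0.237) and 0.397 in females (0.377 to 0.417). The call was lost with library totals in place of TMM (−1.39, adjusted p = 0.0721), without the control female (−1.29, adjusted p = 0.0520) and without the sevoflurane male library (−1.07, adjusted p = 0.0942). Without the sevoflurane female library it was −2.51.

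**Figure D2:**
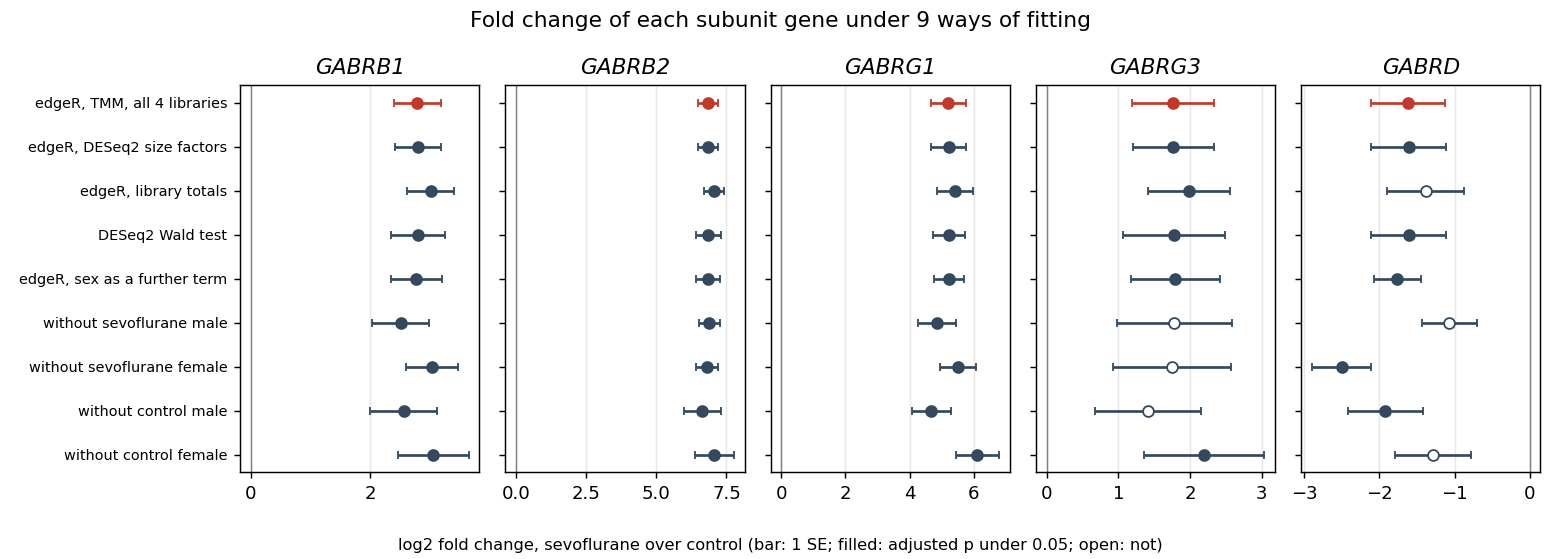
Log2 fold change, sevoflurane over control, of each subunit gene under 9 ways of fitting, with bars of 1 SE. Filled points had an adjusted p under 0.05 and open points did not. GABRB1, GABRB2 and GABRG1 are filled throughout, while GABRG3 has 3 open points and GABRD has 3.

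The balance of GABRD reads to those of GABRG1 and GABRG3 moved with these changes. The log2 ratio of GABRD to GABRG1 was −1.35 and 0.75 in the sevoflurane male and female libraries, against 7.20 and 6.41 in the control male and female libraries. The difference, sevoflurane minus control, was −7.11, with an SD of 1.48 within the sevoflurane and 0.56 within the control pair. Both control ratios thus lay above both sevoflurane ratios, and the sevoflurane pair was the more spread. The log2 ratio of GABRD to GABRG3 was 3.05 and 4.46 in the sevoflurane male and female libraries, against 7.38 and 7.24 in the control male and female libraries, a difference of −3.56. The log2 ratio of GABRG1 to GABRG3 was 4.40 and 3.70 in the sevoflurane male and female libraries, against 0.18 and 0.83 in the control male and female libraries, a difference of 3.55. Each of these ratios gave the smallest p that the exact permutation test allows (0.333). The 4 ratios share genes and are not independent of each other.

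Of the reads on GABRG1, GABRG3 and GABRD together, GABRD held 27.3% (95% exact binomial interval 25.6 to 29.0) in the sevoflurane male and 61.0% (59.3 to 62.6) in the sevoflurane female library. In the control male and female libraries it held 98.8% (98.3 to 99.2) and 98.2% (97.8 to 98.6). GABRG1 took 69.5% and 36.3% in the sevoflurane male and female libraries, against 0.653% and 1.15% in the control male and female libraries. GABRG3 was a small part in each library, at 3.27% and 2.77% in the sevoflurane male and female and 0.576% and 0.638% in the control male and female libraries.

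**Figure D3:**
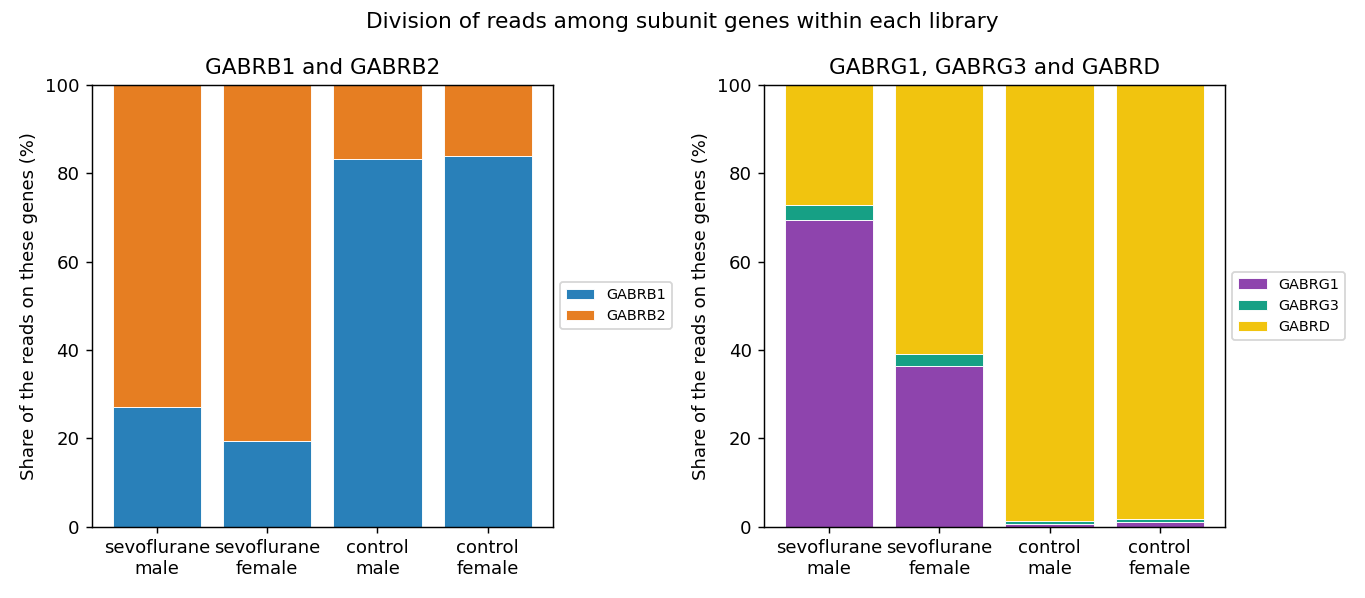
Share (percent) of the reads on GABRB1 and GABRB2 together (left), and on GABRG1, GABRG3 and GABRD together (right), held by each of these genes in each library. GABRB2 held 72.9% and 80.5% in the sevoflurane male and female libraries, against 16.7% and 16.2% in the control male and female libraries. GABRD held 27.3% and 61.0% in the sevoflurane male and female libraries, against 98.8% and 98.2% in the control male and female libraries.

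**Figure D4:**
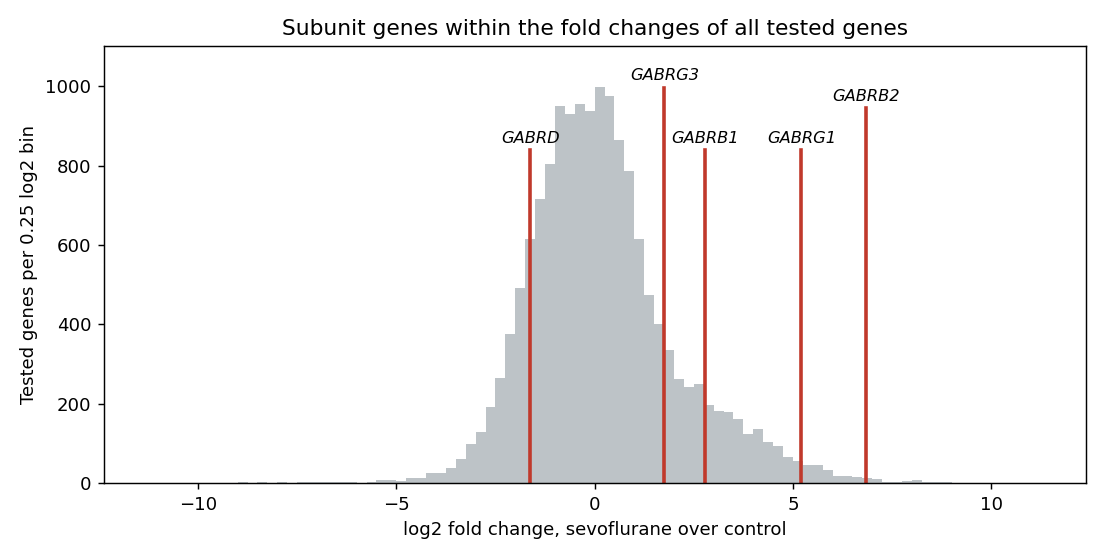
Histogram of log2 fold changes, sevoflurane over control, of the 15417 tested genes in bins of 0.25, with red lines at the 5 subunit genes. GABRB2 (6.83) and GABRG1 (5.21) lie in the thin right tail, while GABRG3 (1.76) and GABRD (−1.62) lie on the shoulders of the main peak.

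Sex was examined as a second question, since each condition held 1 male and 1 female. With condition and sex as terms, 1.84% of tested genes were called between males and females, and edgeR called 0 of the 5 subunit genes. At an unadjusted p under 0.05, which 10.9% of tested genes reached, there was 1, GABRD, and DESeq2's Wald test called 0. The estimate for GABRD was −1.01 ± 0.31 (log2, male over female, edgeR adjusted p = 0.138), lower in the male of both conditions. In the alternatives that kept condition as a term its adjusted p ranged from 0.0507 to 0.124. Its male over female ratio was 0.368 (95% counting interval 0.338 to 0.401) in sevoflurane and 0.670 (0.639 to 0.702) in control libraries. The other 4 genes had estimates of −0.35 to 0.08 with SEs of 0.35 to 0.61, so sizeable differences between the sexes are within the error of this design.

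For GABRB1 and GABRG1 the order of the sexes was opposite in the 2 conditions. GABRG1 had a male over female ratio of 1.58 (95% counting interval 1.47 to 1.70) in sevoflurane and 0.379 (0.208 to 0.658) in control libraries. GABRB1 had 1.43 (1.26 to 1.63) in sevoflurane and 0.738 (0.502 to 1.07) in control libraries. GABRB2 had 0.930 (0.867 to 0.997) in sevoflurane and 0.766 (0.298 to 1.84) in control libraries, and GABRG3 had 0.973 (0.720 to 1.31) and 0.601 (0.304 to 1.13). Whether the response to sevoflurane differs between the sexes was not tested, because an interaction term leaves no residual degrees of freedom with 1 library per cell of the design. The direction under sevoflurane was the same in males and in females for each of the 5 genes, and for 85.3% of tested genes.

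**Figure D5:**
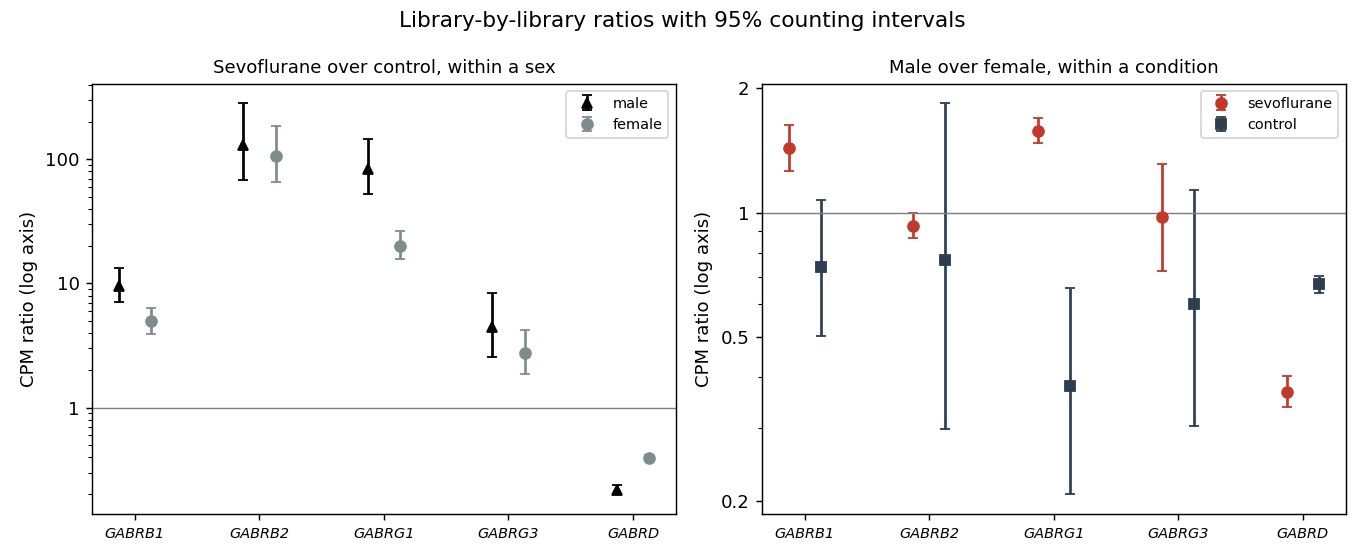
Ratios of scaled CPM on log axes, with 95% counting intervals: sevoflurane over control within males and within females (left), and male over female within sevoflurane and within control (right). The left panel shows GABRG1 at 84.2 in males and 20.2 in females. The right panel shows GABRB1 and GABRG1 above 1 in sevoflurane and below 1 in control.

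The rest of the receptor family gives the setting for these values. Of 5 listed alpha subunit genes, 4 were tested and all 4 rose, with a median log2 fold change of 2.48. The largest were GABRA3 (3.35 ± 0.48) and GABRA4 (2.72 ± 0.53, and 3.69 without the control female library). That count was 3 without the control male, without the sevoflurane male and without the sevoflurane female library, and the median was 3.30 without the control female. The alpha median was 2.07 without the control male, 2.38 without the sevoflurane male and 2.68 without the sevoflurane female library. GABRA6, the partner of delta in the cerebellum, had 6 reads at most in any library and was not tested.

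Of 6 other listed subunit genes, 2 were tested. GABRE, which encodes the epsilon subunit, rose by 2.64 ± 0.86 (edgeR adjusted p = 0.0486). Of the fits that left out 1 library, GABRE kept its call only in the one without the control female (4.0). It was 1.99 (adjusted p = 0.163) without the control male, 3.00 without the sevoflurane female and 2.21 without the sevoflurane male library. With sex as a further term both tested genes were called higher. GABRP had no reads in any library.

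Of 21 tested genes for proteins that assemble, move and anchor GABA-A receptors, 8 rose and 1 fell, with a median of 0.84. ARFGEF2, an exchange factor that binds beta subunits during export from the Golgi, rose by 4.72 ± 0.36, and SLITRK3, an adhesion protein of inhibitory synapses, rose by 3.01 ± 0.34. GABARAP, which binds gamma subunits, fell by 1.82 ± 0.26 on the log2 scale. Without the sevoflurane female library 2 fell, and 3 fell with sex as a further term and in DESeq2's Wald test. Of 9 tested genes for GABA synthesis, transport and breakdown 4 rose, with a median of 0.39. SLC38A1, a glutamine transporter, rose by 3.82 ± 0.28 and ALDH5A1, an enzyme of GABA breakdown, by 3.62 ± 0.38. The count that rose was 2 without the control male library. With sex as a further term 4 rose and 2 fell.

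Other transcripts moved as widely, and their part in the values above was not tested. Of 25 long messenger RNAs, such as those of ATRX and BIRC6, 21 rose with a median of 2.33, and their summed level was 4034 to 4269 CPM in sevoflurane and 1718 to 1772 CPM in control libraries. Of 27 short messenger RNAs, those of proteasome, spliceosome and respiratory chain proteins, 22 fell with a median of −1.71, at 2392 to 2498 CPM in sevoflurane and 6892 to 8347 CPM in control libraries. The median of all tested genes was 0.0040. Lengths of the 5 subunit transcripts were not measured here. Of the 5 genes, GABRB2, GABRG1 and GABRB1 had fold changes above the median of the long list, and GABRG3 had one below it. GABRD, at −1.62, was near the median of the short list.

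Cell markers were read as counts of called genes and as summed levels over whole lists. In bulk tissue, fewer cells of a type and less RNA per cell cannot be told apart. Of 10 general neuronal markers 3 rose and 3 fell, with a median of 0.05, and their sum was 7555 to 8584 CPM in sevoflurane and 6837 to 6909 CPM in control libraries. That order turned without MAP2 and SYT1, at 5722 to 6217 CPM in sevoflurane and 6821 to 6858 CPM in control libraries. Of 8 excitatory markers 1 fell, NRGN, and the median was 0.56. The sum of all 8 was lower in both sevoflurane libraries (3277 to 4078 CPM, against 5929 to 7361 CPM in control), and without NRGN it was higher in both (2792 to 3093 CPM, against 2325 to 2745 CPM in control).

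Of 12 inhibitory markers 1 fell, SST, and the median was −0.60. Their sum was 1012 to 1028 CPM in sevoflurane and 1647 to 1984 CPM in control libraries. Without SST the sum stayed lower in both sevoflurane libraries (802 to 901 CPM, against 918 to 1383 CPM in control). It also stayed lower without CALB2 (655 to 954 CPM, against 1087 to 1447 CPM in control). Without both genes the conditions overlapped, at 544 to 728 CPM in sevoflurane and 486 to 718 CPM in control libraries. Of 7 forebrain and amygdala markers 3 rose, with a median of 2.60. Their sum was 553 to 1460 CPM in sevoflurane and 567 to 821 CPM in control libraries, with FOXP2 at 0 in the control male. Without LMO3 the sum was higher in both sevoflurane libraries (161 to 285 CPM, against 49.1 to 59.6 CPM in control). Of 5 markers of dentate gyrus and thalamus 1 rose, PROX1 (5.61 ± 1.17), and the sum was 43.2 to 54.2 CPM in sevoflurane and 35.3 to 90.2 CPM in control libraries. Of 5 tested markers of cerebellar granule neurons 3 fell, ZIC1, ZIC2 and CBLN1. The 7 listed, with BARHL1 at 0 in all 4 libraries, summed to 50.8 to 64.6 CPM in sevoflurane and 110 to 125 CPM in control libraries. The part of these markers in the fall of GABRD was not tested.

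Of 9 astrocyte markers 3 rose and 3 fell, with a median of 0.59. Their sum was 3114 to 3910 CPM in sevoflurane and 4071 to 4363 CPM in control libraries, and without GFAP it was higher in both sevoflurane libraries (2860 to 3358 CPM, against 1735 to 2046 CPM in control). Of 8 microglial markers 6 fell, and the sum was 179 to 240 CPM in sevoflurane and 439 to 479 CPM in control libraries. Of 7 endothelial and mural markers 2 rose and 2 fell, at 209 to 252 CPM in sevoflurane and 331 to 333 CPM in control libraries, and without CLDN5 the conditions overlapped (189 to 231 CPM in sevoflurane and 182 to 222 CPM in control libraries). Of 5 oligodendrocyte precursor markers 1 rose and 1 fell, at 217 to 224 CPM in sevoflurane and 208 to 267 CPM in control libraries. The oligodendrocyte markers, 7 gene IDs, summed to 3048 to 3995 CPM in sevoflurane, against 6417 CPM in the control male and 1480 CPM in the control female library. The control male library also held the highest sum of dentate gyrus and thalamus markers (90.2 CPM). It stood farthest apart in 2 other lists. Its 6 choroid plexus markers summed to 19624 CPM, against 55.4 CPM in the control female and 4.81 to 32.4 CPM in the sevoflurane libraries, and to 2045 CPM without TTR. Its 8 striatal-type markers summed to 2486 CPM, against 397 CPM in the control female and 224 to 300 CPM in the sevoflurane libraries. The 4 red blood cell markers summed to 0.756 to 2.15 CPM in sevoflurane, against 36.1 CPM in the control male and 11.6 CPM in the control female library. Without the control male library the log2 fold changes of the subunit genes were 6.64 for GABRB2, 2.56 for GABRB1, 4.67 for GABRG1, 1.41 for GABRG3 and −1.92 for GABRD, so the direction of each was kept.

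Subunit genes of this family lie in clusters, and the order of genes was taken from RefSeq's T2T macaque assembly, which may differ from the build behind the counts. GABRG1 and GABRB1 stand at the ends of one cluster with GABRA2 and GABRA4 between them. All 4 of these genes rose, as did 21.3% of all tested genes. Just outside that cluster, GNPDA2 beside GABRG1 was called higher (1.66 ± 0.46) and COMMD8 beside GABRB1 was not called (0.17 ± 0.43). GABRB2 shares another with GABRA6, and GABRG3 lies next to GABRA5. GABRD stands outside any cluster. Of 6 genes beside it 4 were tested, and 3 of these fell, FAAP20, PRKCZ and TMEM52, against 19.4% of all tested genes. The part of position in these changes was not tested. In that assembly another gene overlaps each of 4 subunit genes: a protein-coding gene at GABRB2 and at GABRD, where it is CFAP74, a small nucleolar RNA at GABRB1 and a long noncoding RNA at GABRG3. The sources used here do not say how reads in such overlaps were counted, so those 4 counts are uncertain to that extent.

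Genes with the most similar profile were found by distance, over the 4 libraries, between log2 CPM values centred on each gene's own mean. Nearest to GABRB1 were SLC17A5 (distance 0.06 log2 units), NBEAL1 (0.09) and ABCC1 (0.12). Nearest to GABRB2 were GRM5 (0.41), a metabotropic glutamate receptor gene, ZNF770 (0.50) and FAM217B (0.50). GRM5 had 112 and 103 CPM in the sevoflurane male and female libraries, against 1.15 and 1.17 CPM in the control male and female libraries. GABRG1 was nearest to LNPEP (0.13), MICU3 (0.21) and E2F3 (0.27), GABRG3 to CERS6 (0.08), CEP83 (0.09) and CPEB4 (0.09), and GABRD to SNAPC2 (0.17), CD52 (0.18) and SPAG4 (0.19). None of these lists held another GABA-A subunit gene. FAM217B had 0 CPM in both control libraries, and E2F3 had 0 and 0.13 CPM in the control male and female libraries. Distances at such levels depend on the prior count of 2 used for log2 CPM. Among the 5 genes themselves the closest pair was GABRB1 and GABRG3 (1.11), followed by GABRB2 and GABRG1 (1.64), and the farthest was GABRB2 and GABRD (8.48). The beta pair was 3.94 apart and the gamma pair 3.61.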

How the data were processed

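RNA sequencing of amygdala gave 4 libraries, with 12477047 to 16293371 reads on genes each. The authors deposited raw read counts per Ensembl gene, not normalized, with 1 column per library per the file headers. Reads were aligned with HISAT2, per the submitters' processing notes; the sources used here do not give its version, the counter, build, annotation, strand setting or any poly(A) selection. Groups came from the treatment label. Replicate numbers were assigned here, with 1 for the female and 2 for the male library of each group. The labels do not name separate animals, so p-values measure the spread between these libraries, which includes sex.

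Symbols from a table of gene IDs matched 24173 of 35395 IDs. Genes were filtered with filterByExpr (minimum count 10) and scaled with TMM, and edgeR 4.0.16 (R 4.3.3) tested condition alone, with 2 residual degrees of freedom, or condition and sex, with 1. SEs were derived from the F statistic. P-values were adjusted over all 15417 genes. Alternatives were DESeq2 1.42.0, library totals, DESeq2's size factors, other filters, sex as a term and leaving out each library. Read ratios had 0.5 added to each count and were compared by exact permutation. Intervals are 95% and exact. Log2 CPM for likeness used a prior count of 2. The fit was tested on simulated data.

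The subunit genes, gene lists and tests were chosen with earlier results of these data known. Named were all 5 subunit genes, up to 2 rising and 2 falling genes of largest change in each GABA list, and the 3 tested genes nearest to each subunit gene. Markers of other cells, those left out of a sum, and genes named for their position were chosen after their values were seen. A few related genes are not reported here, and the lists and their counts leave them out. For 8 of the 203 symbols in the lists the table had no ID. No sequences of these genes were used here.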

Additional observations from a re-analysis of the deposited data

Results flagged for a closer look

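GABRB1 and GABRG1 had a higher level in the male than in the female library under sevoflurane and a lower one in controls. The male over female ratio of GABRG1 was 1.58 in sevoflurane and 0.379 in control libraries, and that of GABRB1 was 1.43 in sevoflurane and 0.738 in control libraries. The control counts behind these ratios were 17 and 61 reads for GABRG1 and 45 and 83 reads for GABRB1 in the male and female library. This difference between conditions was not tested, since each value rests on 1 library per sex and condition.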

How the results depend on the processing

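GABRB1, GABRB2 and GABRG1 kept their call in each of the 10 alternatives run, and GABRG3 and GABRD kept their direction in them. Leaving out 1 library gave 3469 (without the sevoflurane male) to 5800 called genes, against 6278 with all, and 3 to 4 called subunit genes, against 5. With 3 libraries 1 group holds a lone library, which is assumed to vary like the other group. With library totals 63.3% of called genes were higher, against 52.3% with TMM, and the median of all genes was 0.24, against 0.0040. The labels give no replicate numbers, and libraries are matched across conditions by sex alone; the fit with sex as a further term called 7825 genes and all 5 subunit genes. Between the sexes 283 genes were called, 603 without a filter and 0 with sex as the only term (168 at an unadjusted p under 0.05), where GABRG1 turned to 0.61 from −0.13, with an SE of 2.13. The cause was not tested. Without 1 library the log2 ratios differed by 3.72 to 4.35 for GABRB2 over GABRB1, 3.20 to 3.90 for GABRG1 over GABRG3, −8.16 to −6.06 for GABRD over GABRG1 and −4.26 to −2.85 for GABRD over GABRG3. Depth limits GABRB2, GABRG1 and GABRG3, with 9 to 61 reads in each control library.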

Other observations

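GABRQ, the theta subunit gene, was named after its values were seen. It had 940 reads in the sevoflurane male and 75 in the sevoflurane female library, against 42 in the control male and 7 in the control female library. It was higher in the male of both conditions, with a log2 difference of 3.50 ± 0.47, male over female (edgeR adjusted p = 0.000608). Its change under sevoflurane was not called with condition as the only term (4.08 ± 1.39, edgeR adjusted p = 0.0559) and was called higher with sex as a further term (3.83 ± 0.47, edgeR adjusted p = 8.15e-06). It was also called with library totals, without a filter, and without the control female (3.25), the control male (6.20) or the sevoflurane female library (5.0), and it was 1.20 (adjusted p = 0.515) without the sevoflurane male library. The control male library also held the highest sums of choroid plexus and striatal-type markers, and the part of tissue sampling in these values was not tested.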
